A study of Homo sapiens with 2 samples.

Results

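The 8 genes described here are TXNIP, 4 of its relatives among the alpha-arrestins, ARRDC1, ARRDC2, ARRDC3 and ARRDC4, and the glucose-sensing transcription factors MLX, MLXIP and MLXIPL. They were chosen by name around TXNIP, which was itself selected on its difference between the same arrays, so the TXNIP values below are a description and no test. Each of the 8 has 1 probe set that the array annotation maps to its symbol alone, out of 18378 genes with such a probe set, and 7 of the 8 passed the filter on dim signals that 11469 genes passed. A gene passed when its brighter array reached 4.01 on the log2 scale, which is where the middle probe set lies when each is averaged over both arrays.

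The study holds 2 whole-transcript Affymetrix arrays of total RNA from the human multiple myeloma line LP-1, an established line. On 1 array, the vector control, the cells had been infected with the empty vector pRUF-IRES-GFP. On the other, the HIF2A array, the vector also carried the full-length cDNA of human HIF-2α, a transcription factor subunit that low oxygen stabilises and that EPAS1 encodes, so that both lines carry the GFP vector and differ in the HIF-2α insert. The comparison asks which transcripts differ when HIF-2α is added. No oxygen level or glucose concentration is given in the labels used here, nor whether each line is a clone or a pool of infected cells. With 1 array per group no difference has a replicate check, and no SE or p-value can be had. The RNA is from bulk cultures, so more transcript per cell and more cells with the transcript cannot be told apart.

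Alpha-arrestins are adaptor proteins that sit at membranes, recognise transporters and receptors, and recruit ubiquitin ligases of the NEDD4 family through short proline-rich motifs in their tails, which sends the cargo into the cell. TXNIP also binds and inhibits the redox protein thioredoxin, and it lowers glucose uptake by promoting the internalisation of glucose transporters. Its gene is switched on by sugar phosphates through MondoA, encoded by MLXIP, or its relative ChREBP, encoded by MLXIPL, each of which binds DNA as a dimer with MLX at paired E-box-like sites called carbohydrate response elements.

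The labels were checked first. The EPAS1 signal was 3.70 on the vector control array and 9.05 with added HIF-2α, and HIF1A, the gene of the related subunit HIF-1α, had 6.92 and 6.99. All 10 plasma cell markers examined passed the filter, with signals from 6.46 to 12.59 in the vector control and from 4.24 to 12.55 in the HIF2A array. Of these 10, 2 were lower by 2-fold or more with added HIF-2α, against 0.732% of genes past the filter, the surface receptor gene SLAMF7 at 4.24 against 6.63 and TNFRSF17, the gene of BCMA, at 7.68 against 8.71. Of 27 markers of B cells, T and NK cells, myeloid, stromal, endothelial and erythroid cells with a probe set, 6 passed, and the brightest, NKG7, reached 4.81. Olfactory receptor genes, which few tissues outside the nose express and which serve here as a measure of background, had 95th percentiles of 3.58 in each array. Differences are given throughout as HIF2A minus vector control. Their median over the 11469 genes was 0.03 in log2 units, with quartiles of -0.20 and 0.26 and a robust SD of 0.34, which is the spread among genes and not an error between replicates.

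TXNIP was the member that stood apart. Its signal was 6.61 in the vector control and 8.54 in the HIF2A array, which is 1.93 higher on the log2 scale, or 3.81-fold. Both signals were far above the olfactory receptor level, by 3.03 and 4.96 log2 units. Its difference was the eighth of the 11469 genes counted from the highest, and 99.9% of the genes had a lower one. It was the only member at least 2-fold apart, 1 of 8, in a comparison where 81 genes, 0.706% of those past the filter, reached 2-fold in the same direction and 84, 0.732%, in the other. Since TXNIP was selected on this contrast, nothing is read from that count.

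**Figure D1:**
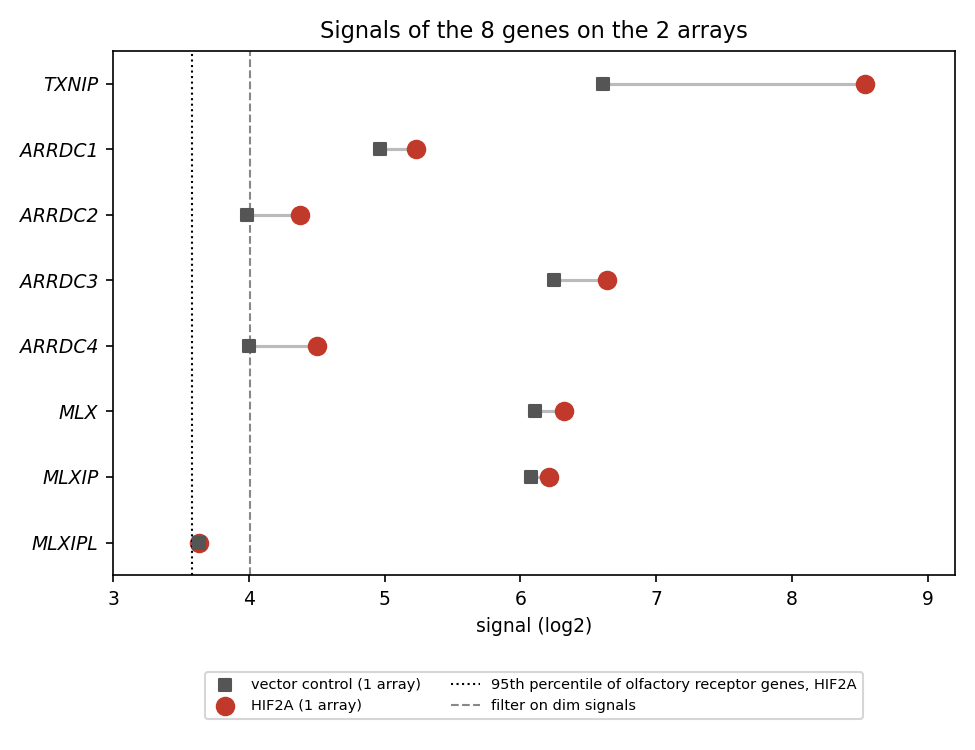
Signal in log2 units (horizontal axis) of each of the 8 genes (vertical axis) on the vector control array (grey squares) and the HIF2A array (red circles), 1 array each, joined by a line. The dotted line is the olfactory receptor 95th percentile of the HIF2A array, 3.58, and the dashed line the filter at 4.01. TXNIP has by far the longest line, from 6.61 to 8.54, and the symbols of MLXIPL coincide at 3.63.

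The 5 genes whose pair of signals lay nearest to that of TXNIP, by Euclidean distance over the 2 arrays, were BNIP3, DDIT4, PDK1, TRAM2 and TNFAIP3. BNIP3, a mitophagy receptor gene, was the closest at a distance of 0.12 log2 units, with 6.49 and 8.56. DDIT4, an inhibitor of mTORC1 signalling, followed at 0.35, with 6.62 and 8.19. The next, PDK1, was already 0.48 away, with a difference of 1.26. The pairs of signals nearest to those of ARRDC4 all lay within 0.03 log2 units of it, those of PRDM15, ZNF70, FIGN, LY86-AS1 and PLVAP. These genes were dim like ARRDC4, with differences from 0.47 to 0.50. Signals of different probe sets depend on their probes as well as on transcript number, and a likeness over 2 arrays says little more than that 2 values were close.

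The region just before the start of TXNIP holds a paired site of the kind that MondoA and ChREBP are known to bind, and it is shown here because TXNIP is the member that differed. The sequences are from RefSeq on GRCh38.p14, 250 bases up to the annotated start, read 5′ to 3′ on the gene's own strand. TXNIP lies on the minus strand with the bases shown at chr1:145996580-145996829, ARRDC4 on the plus strand at chr15:97960453-97960702 and MLX on the plus strand at chr17:42566850-42567099. Capitals mark the 6-base ends of the carbohydrate response element in TXNIP and the E-box CACGTG in ARRDC4 and MLX, the other members with a match to either motif.

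TXNIP: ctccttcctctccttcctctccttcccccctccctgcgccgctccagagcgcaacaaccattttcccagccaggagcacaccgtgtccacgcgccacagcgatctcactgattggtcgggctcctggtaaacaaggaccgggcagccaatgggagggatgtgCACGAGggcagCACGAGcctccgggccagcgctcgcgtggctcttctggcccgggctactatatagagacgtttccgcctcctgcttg
ARRDC4: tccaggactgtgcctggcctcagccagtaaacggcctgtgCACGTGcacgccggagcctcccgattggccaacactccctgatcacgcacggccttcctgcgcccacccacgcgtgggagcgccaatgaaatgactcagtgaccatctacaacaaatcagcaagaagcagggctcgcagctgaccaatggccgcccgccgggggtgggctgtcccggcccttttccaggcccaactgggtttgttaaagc
MLX: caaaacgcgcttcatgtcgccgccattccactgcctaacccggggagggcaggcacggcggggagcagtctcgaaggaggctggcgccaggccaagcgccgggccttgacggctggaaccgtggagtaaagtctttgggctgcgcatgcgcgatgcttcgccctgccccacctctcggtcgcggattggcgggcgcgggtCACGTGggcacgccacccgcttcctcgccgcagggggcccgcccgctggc

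The carbohydrate response element was searched as CACGNG, then any 5 bases, then CNCGNG, on both strands of windows from 250 bases before to 50 after each annotated start. In TXNIP it lies from base -88 to base -72 relative to the start, as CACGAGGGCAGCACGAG. Of 35116 windows in the RefSeq table, 0.501% hold the pattern, and among the 11 windows of the 8 members this is the only one. Only this spelling was searched, and the motifs were chosen with earlier results of these data known. The lack of a match therefore does not show that another member, such as ARRDC4, lacks such an element. The palindromic E-box CACGTG, found in 7.26% of windows, lies in ARRDC4 from base -210 to -205 and in MLX from base -50 to -45. The short core of hypoxia response elements, ACGTG or GCGTG on either strand, is present in 48.4% of all windows. Of the genes past the filter with a window, 70.1% hold this core, so it separates few genes. It overlaps the E-box, which holds it on both strands. ARRDC4 has 6 such matches, MLX has 3, the outer windows of TXNIP and ARRDC2 and the window of MLXIP have 2 each, and ARRDC1, ARRDC3 and MLXIPL have 0. The second window of TXNIP has 1 and that of ARRDC2 has 2. The matches describe letters in these windows and not binding by any factor.

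Among all genes past the filter with a promoter window, 9138 in number, 66 or 0.722% were higher by 2-fold or more with added HIF-2α and 58 or 0.635% lower by as much. The carbohydrate response element pattern was held by 102 of them. Of these, 4 were higher by 2-fold or more and 1 was lower by 2-fold, while their median difference, 0.06, was near the 0.04 of all 9138. At 1.5-fold the 102 were even, with 5 higher, TXNIP among them, and 5 lower. The 4 include TXNIP, whose selection fixed its place, and without it 3 of 101 remain, or 2.97%. These are P4HA1, which encodes a subunit of the collagen prolyl hydroxylase, with 7.60 against 6.44, SQSTM1, the gene of the autophagy receptor p62, with 7.86 against 6.83, and SIL1, an exchange factor gene for an ER chaperone, with 5.32 against 4.30. MRPS33, a mitochondrial ribosomal protein gene, was the 1 lower, with 4.80 against 5.80. These 4 genes are named after their values were seen, and SIL1 lies among neighbours with a median difference of 0.52. The pattern thus marks a small set of which most genes differed little. Whether it has a part in the higher signals of TXNIP, P4HA1, SQSTM1 and SIL1 was not tested. The E-box CACGTG was held by 1191 genes, of which 10 or 0.840% were higher by 2-fold or more. Without TXNIP, the hypoxia core was held by 6401 genes, of which 46 or 0.719% were higher by as much.

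The ARRDC genes all had a higher signal in the HIF2A array, by much smaller differences than TXNIP. ARRDC4, the closest to TXNIP in its known control by glucose and its brake on glucose uptake, had 4.00 in the vector control and 4.50 in the HIF2A array, which is 0.50 higher or 1.41-fold. ARRDC3, an adaptor in the trafficking of beta-adrenergic receptors and an integrin, had 6.25 and 6.64, a difference of 0.39. ARRDC2, a less studied adaptor for ubiquitin ligases, had 3.99 and 4.38, also a difference of 0.39. ARRDC1, which drives the budding of small vesicles from the plasma membrane, had 4.97 and 5.23, a difference of 0.26.

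Of these 4 genes 0 were at least 1.5-fold higher, a size that 5.67% of genes past the filter reached in that direction and 4.76% in the other. ARRDC4 had a higher difference than 91.2% of the genes past the filter, ARRDC2 and ARRDC3 than 84.9% each, and ARRDC1 than 74.4%. ARRDC2 and ARRDC4 are dim, only 0.41 and 0.42 log2 units above the olfactory receptor level in the vector control. Both passed the filter through the HIF2A array alone, so a higher value there was a condition of passing for them. With 32 added to each linear signal, a step that shrinks dim differences, ARRDC4 came to 0.19 and ARRDC2 to 0.14.

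The factors that sense glucose differed by 0.21 or less. MLX, the shared partner, had 6.11 in the vector control and 6.32 in the HIF2A array, which is 0.21 higher. MLXIP, which encodes MondoA, had 6.08 and 6.21, a difference of 0.13. MLXIPL, which encodes ChREBP and is best known from liver, had 3.63 on both arrays, just 0.05 log2 units above the olfactory receptor level, and did not pass the filter. The transcript of MLXIPL was therefore close to background in both lines, whereas MLX and MLXIP were at least 2.50 log2 units above it.

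Counted over all 8 genes, 7 had a higher signal in the HIF2A array, 0 a lower one and MLXIPL the same. Without TXNIP, whose selection on this contrast fixed its direction, 6 of 7 were higher. A difference above 0 was found in 48.9% of all 18378 genes and in 52.6% of those past the filter. The median of the 8 differences was 0.325, or 0.26 without TXNIP, and that of all 18378 genes was 0. Quantile, median and loess centring left every difference of the 8 at or above 0, with TXNIP between 1.91 and 1.95 and MLXIPL between 0.02 and 0.05. The 6 genes between MLXIPL and TXNIP had differences from 0.13 to 0.50, which are of the size of the robust SD among genes, and 2 arrays cannot show whether they would recur.

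**Figure D2:**
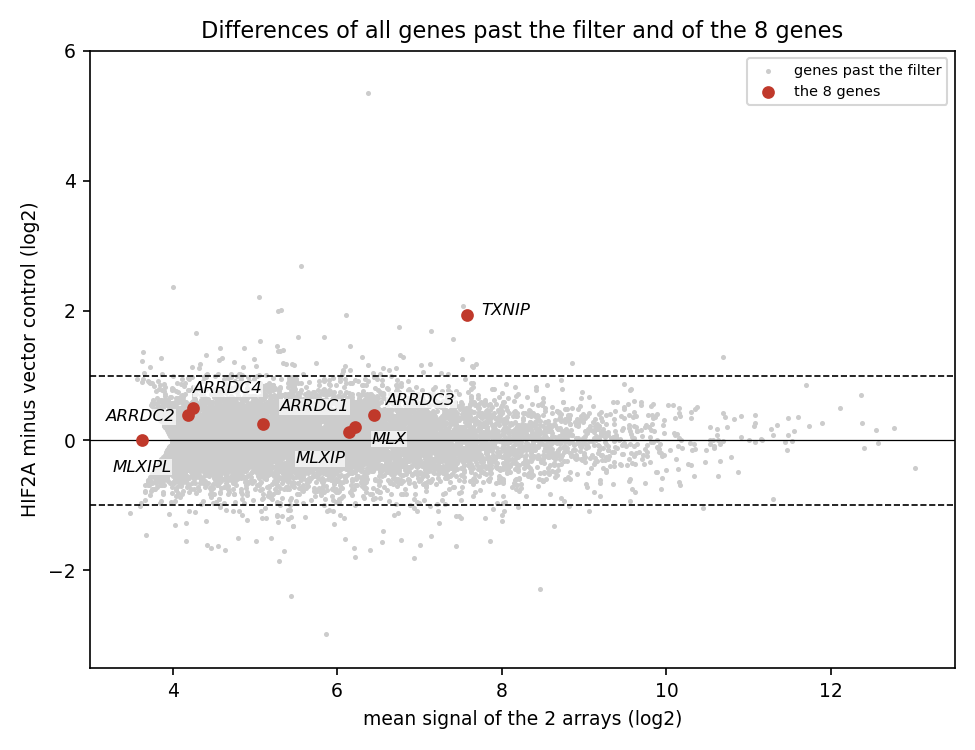
HIF2A minus vector control in log2 units (vertical axis) against the mean signal of the 2 arrays (horizontal axis) for the 11469 genes past the filter (grey) and the 8 genes (red), with dashed lines at 2-fold. TXNIP lies at 1.93 outside the cloud, and the other 7 lie between 0 and 0.50, MLXIPL at the dim edge, below the filter.

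The neighbours of each member in gene order were also examined. The 20 nearest genes past the filter around TXNIP on chromosome 1 had a median difference of 0.08 and ran from -0.63 to 1.28, with 12 higher and 8 lower, and none of them reached the 1.93 of TXNIP. Its nearest neighbours on either side, POLR3GL and RNVU1-6, had -0.40 and 0.91. RNVU1-6, at 4.83 against 3.92, passed the filter through the HIF2A array alone. LINC01138, at 3.73 against 4.06, passed through the vector control alone, so the directions of both were conditions of passing. The U1 small nuclear RNA genes RNVU1-6 and RNVU1-1, the latter at 1.28, have near-identical copies that probes may not separate.

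Over all genes past the filter, 52.6% were above 0 and the median was 0.03. ARRDC3 lies on chromosome 5 among neighbours of which 14 of 20 were higher, with a median of 0.285. After subtracting that median its difference came to 0.105, against 0.39 as measured. MLXIP lies among neighbours with a median of 0.19, and its difference came to -0.06 after subtraction, so its direction is not settled. ARRDC2 had neighbours with a median of 0.16 and came to 0.23. The neighbours of ARRDC4, ARRDC1, MLX and MLXIPL had medians between -0.045 and 0.095, and ARRDC4 came to 0.465. The part that these neighbourhoods have in the members' differences was not tested.

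**Figure D3:**
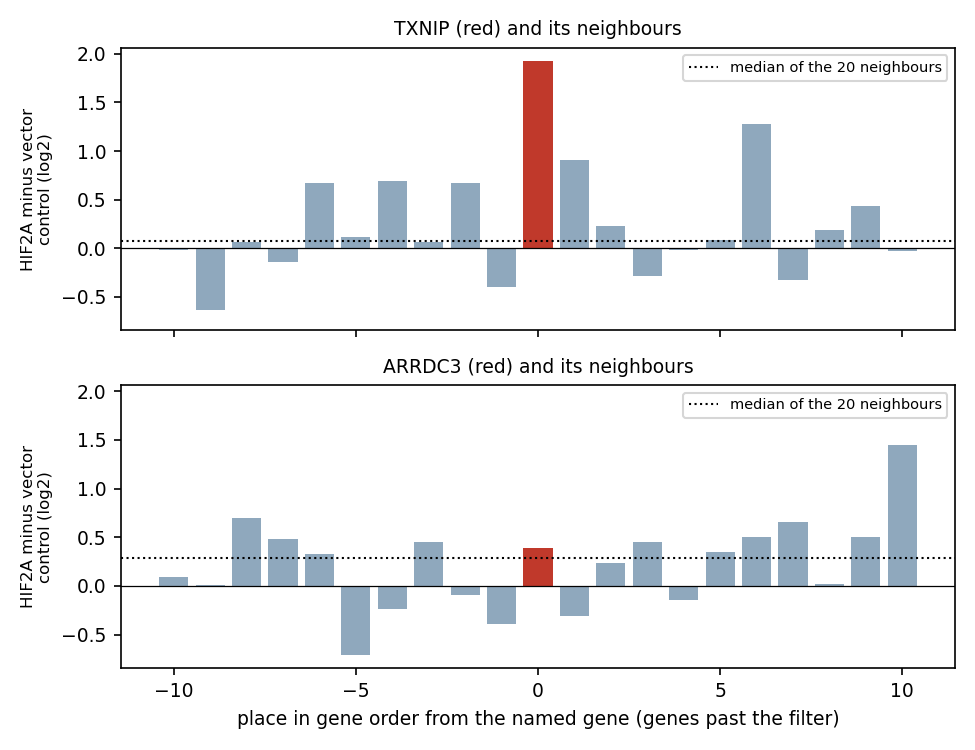
HIF2A minus vector control in log2 units (vertical axes) for TXNIP and ARRDC3 (red bars) and the 10 nearest genes past the filter on each side, by place in gene order (horizontal axis). The dotted line is the median of the 20 neighbours, 0.08 around TXNIP and 0.285 around ARRDC3. TXNIP stands above each of its neighbours, while ARRDC3 is near the median of its own.

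The genes of proteins that TXNIP binds or is controlled by did not differ together in signal. Of 11 genes past the filter in this list, 6 were higher, 4 lower and 1 equal, with a median of 0.03, the same as that of all genes. The thioredoxin gene TXN had a signal of 8.98 on both arrays. The mitochondrial thioredoxin gene TXN2 was higher by 0.41, at 5.84 against 5.43, and the reductase genes TXNRD1 and TXNRD2 by 0.10 and 0.03. DDIT4, whose protein forms a complex with TXNIP, was the only gene of the list at least 2-fold apart, by 1.57. Of all genes past the filter, 0.706% were higher and 0.732% lower by 2-fold or more. The list was chosen with earlier results of these data known, so nothing is read from DDIT4 against these shares. The glucose transporter gene SLC2A1, whose product TXNIP helps to internalise, was higher by 0.94, at 6.81 against 5.87. The insulin-regulated transporter gene SLC2A4 was dim, with 3.93 against 4.20, and COPS5 and the AMPK subunit gene PRKAA1, whose kinase marks TXNIP for degradation, had -0.26 and -0.20. NLRP3, the inflammasome sensor gene that TXNIP is reported to bind, did not pass the filter, at 2.88 against 3.06.

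The ubiquitin ligases of the NEDD4 family and their adaptors, which act with the alpha-arrestins, had 11 genes past the filter, 0 of them at least 1.5-fold apart, where 5.67% of all genes were higher and 4.76% lower by that much. Of the 11, 7 were higher and 4 lower, with a median of 0.11, where 52.6% of all genes past the filter were above 0, with a median of 0.03. SMURF2 had 0.45, VPS4A, an ATPase of vesicle budding, 0.36 and NEDD4L 0.26, and the lower ones were led by SMURF1 at -0.39, TSG101, the ARRDC1 partner in vesicle budding, at -0.24 and NDFIP2 at -0.20. NEDD4L passed the filter through the HIF2A array alone and NDFIP2 through the vector control alone, so their directions were conditions of passing. ITCH, the ligase that degrades TXNIP, had 6.67 against 6.46, a difference of 0.21.

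Other genes with an arrestin fold were few: 5 passed the filter, with a median of 0.32 against 0.23 over the 7 with a probe set. That median came to 0.094 with 32 added on the linear scale and to 0.115 after subtracting neighbours, so its size is not settled. RGP1, a trafficking factor gene, had 0.43, the beta-arrestin gene ARRB1 0.38 and the retromer gene VPS26B 0.32, while its relatives VPS26C and VPS26A had -0.14 and -0.05. ARRB1 passed the filter through the HIF2A array alone, at 4.01 against 3.63. ARRDC5 and ARRB2 have no probe set of a single symbol and were not analysed here.

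The list of cargo of alpha-arrestins had a median of 0.51 over 6 genes past the filter, 5 higher and 1 lower, with 2 at least 1.5-fold higher. It holds genes of receptors and transporters, and also YAP1, which is neither and was higher by 0.27. Of all genes past the filter 52.6% were above 0 and 5.67% at least 1.5-fold higher, and a list of 6 is too small to read against these shares. The 2 were SLC2A1 at 0.94 and the thrombin receptor gene F2R at 0.61, the latter among neighbours with a median of 0.36. SLC11A2, the iron transporter DMT1 that ARRDC1 and ARRDC4 help to degrade, had 0.56, and SLC2A4 was the lower one at -0.27. Over all 9 genes with a probe set, the dim ones included, the median was 0.27, with 5 higher and 4 lower, so the level of this median depends on the filter.

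Genes of glycolysis and fat synthesis that MondoA or ChREBP is known to drive went both ways. These other targets of MondoA and ChREBP had a median of -0.01 over 13 genes past the filter, with 6 higher and 7 lower. The higher ones were led by PFKFB3, the regulator of phosphofructokinase, at 1.17, with 5.96 against 4.79, LDHA, lactate dehydrogenase, at 0.86, and the transketolase gene TKT at 0.55. PFKFB3, LDHA and HK2, at 0.30, are also known HIF targets. Without these 3, a removal chosen after seeing the data, the median was -0.035. Which factor lies behind their differences was not tested. The lower ones were led by SCD, the stearoyl-CoA desaturase, with 9.21 against 9.95, a difference of -0.74, the fatty acid elongase gene ELOVL6 at -0.48 and the fatty acid synthase gene FASN at -0.36. ELOVL6 lies among neighbours with a median of -0.38. KLF10 and RGS16, glucose-induced regulators, differed by -0.01 and 0.02. PKLR, G6PC1, GCKR, FGF21, THRSP, PNPLA3, ME1 and ACACB, several of them liver genes, did not pass the filter.

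The dimerization partners of MLX and the E-box factors, 8 genes that all passed the filter, were split into 4 higher and 4 lower, with a median of 0.06. None was at least 1.5-fold apart, where 5.67% of genes past the filter were higher and 4.76% lower by that much. A list of 8 is too small to read against these shares. With the filter at the 75th percentile the median over the 5 genes left was -0.21. MYC had 9.22 against 8.69, a difference of 0.53, MGA, a repressor with a MYC-like domain, 0.39 and MXD4, which can pair with MLX, 0.22. MGA and MXD4 lie among neighbours with medians of 0.245 and 0.20. USF1, which binds similar E-boxes, had -0.41, MAX -0.25 and MXD1, another MLX partner, -0.21.

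The list for glucose entry and phosphorylation, the step that makes the sugar phosphate sensed by MondoA, also holds G6PC1 and G6PC3, whose enzymes remove that phosphate. Of its 14 genes with a probe set, 8 passed the filter, G6PC3 among them. Of these 5 were higher and 3 lower, with a median of 0.24, which came to 0.02 over all 14. Of all genes past the filter 52.6% were above 0, with a median of 0.03, and 8 genes are too few to read against these values. Besides SLC2A1 at 0.94, the lysosomal and intracellular transporter genes SLC2A6 and SLC2A8 had 0.42 and 0.37. The hexokinase genes diverged little, with HK2 at 0.30, 7.24 against 6.94, and HK1 at -0.12. SLC2A3, the neuronal-type transporter gene, was dim at 3.88 against 3.78. SLC2A4, HK1 and G6PC3, at -0.27, -0.12 and -0.08, were the lower ones. SLC2A4 and HK1 passed the filter through the vector control array alone, so a lower value in the HIF2A array was a condition of passing for both, here and in the other lists with SLC2A4.

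**Figure D4:**
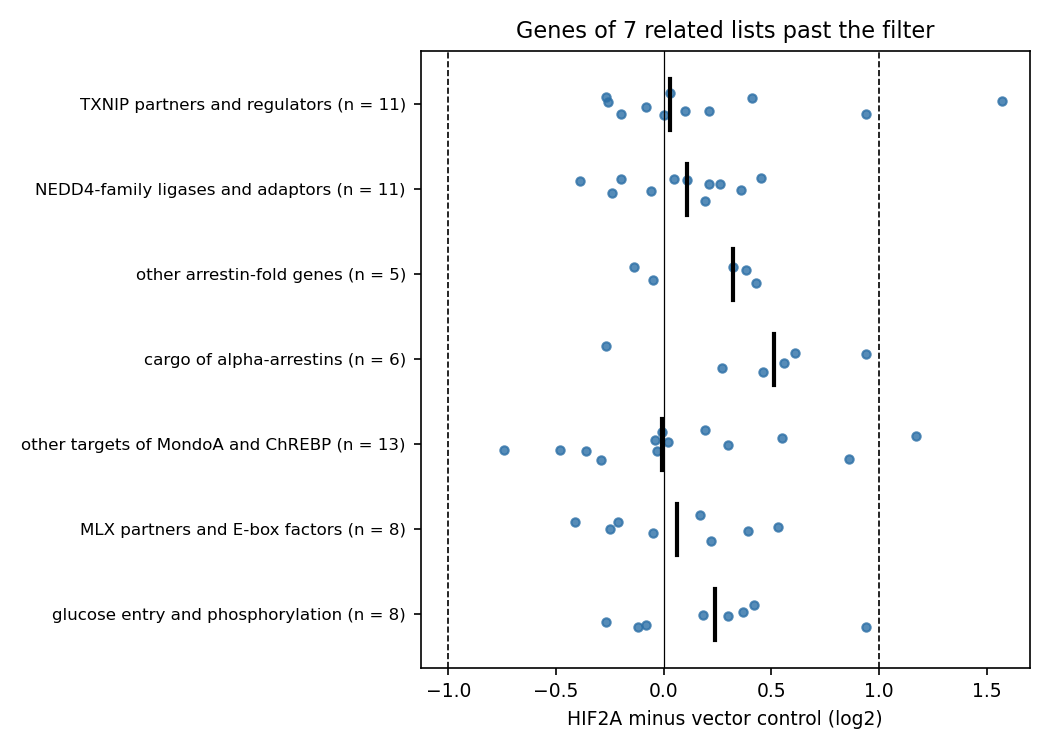
HIF2A minus vector control in log2 units (horizontal axis) for the genes past the filter in 7 lists around the 8 genes (vertical axis), 1 point a gene, with the list median as a black bar and dashed lines at 2-fold. DDIT4 at 1.57 and PFKFB3 at 1.17 are the points beyond 2-fold, and the medians run from -0.01 to 0.51. Some genes, such as SLC2A1, stand in several lists.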

How the data were processed

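The authors deposited log2 signals, 1 value per probe set and array, made with Affymetrix Expression Console according to the submitters' processing notes. The sources used here name neither the algorithm, its version and the background correction, nor the annotation's genome build. Base 2 was inferred because the highest signal, 13.97, is above 11.09, which is as far as a natural log of a 16-bit reading goes. Scanner files were not analysed here.

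Of 28869 probe sets, 19310 carry 1 gene symbol, and 19279 of these were matched to RefSeq (GRCh38.p14) by Entrez number, for names and gene order. Each gene took its brightest probe set. The 8 members have 1 probe set each. Folds are 2 to the power of the log2 difference, and a gene counts as different at 2-fold. Olfactory receptors are 339 genes. Neighbours are the 20 nearest genes past the filter.

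The members, lists and promoter motifs were chosen with earlier results of these data known. Named are all members, the 5 genes nearest to TXNIP and to ARRDC4, and up to 3 genes in each direction per list, with further genes where the text explains a list. Motifs in proteins were not analysed here. The arrays' number limits the precision. Alternatives were quantile, median and loess centring (span 0.3), 32 added on the linear scale, a floor at the olfactory receptor level, other filters and folds, other choices of probe set, and subtraction of neighbours. The code was tested on simulated data. Python 3.11.15, numpy 2.4.6, pandas 2.3.3, statsmodels 0.14.6 and matplotlib 3.10.9 were used.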

Additional observations from a re-analysis of the deposited data

How the results depend on the processing

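Over 8 settings of scaling, offset, floor, probe set and neighbours, TXNIP stayed between 1.64, with 32 added on the linear scale, and 1.95, and it was the 1 member at least 2-fold higher in each, and also at 1.5-fold and 3-fold. None of the 64 recomputed member differences moved by the robust SD among genes, 0.34. That bound exceeds the whole difference of ARRDC1, MLX, MLXIP and MLXIPL, so it cannot show that small differences held. ARRDC3 came down from 0.39 to 0.105, ARRDC2 from 0.39 to 0.14 and ARRDC4 from 0.50 to 0.19. Of the 64, 1 changed sign, MLXIP at -0.06 after subtracting neighbours. All 8 have 1 probe set and lie above the floor, so the floor and probe set settings could not move them, although these settings count among the 64. The offset of 32, which by construction shrinks differences of dim genes, gave 18 genes at least 2-fold higher and 24 lower, and medians of 0.094 for other arrestin-fold genes and 0.32 for cargo of alpha-arrestins. Subtracting neighbours gave 0.115 and 0.3125 for these lists. Without a filter, or with it at the 25th percentile, cargo had 0.27 and glucose entry 0.02, and at the 75th percentile the MLX partners had -0.21 over 5 genes. A filter only changes which genes enter. At 1.5-fold 650 genes were higher and 546 lower, and at 3-fold 14 and 15. Of 85 recomputed list medians, 9 moved by more than the spread expected of a median of that many genes. Dropping genes shared between lists, and dropping HK2, PFKFB3 and LDHA, were alternatives chosen after seeing the data. There was no replicate to leave out. No paired analysis was possible because each group holds 1 array.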
